A study of Homo sapiens with 15 samples.

Results

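The UGT2B androgen-glucuronidating enzymes were followed through the chromatin loops of 6 gene promoters, UGT2B7, UGT2B10, UGT2B11, UGT2B15, UGT2B17 and UGT2B28, which lie in a cluster on chromosome 4. A loop was assigned to a gene if one of its 1 kb anchors lay within 2.5 kb of the first base of the canonical Gencode transcript (hg19). By this rule the 6 promoters held 99 different loops of 505995 in the whole series, and 7 of these joined promoters of 2 members. UGT2B15 had 46 loops, UGT2B7 had 28, UGT2B10 had 16, UGT2B28 had 8, UGT2B11 had 7 and UGT2B17 had 1. The loops came from HiChIP, in which DNA ends that lie close together in the nucleus are ligated and pairs near a histone mark are then pulled down with an antibody. H3K27ac marks active promoters and enhancers, and H3K4me3 marks active promoters.

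All samples were LNCaP cells, an established androgen-dependent prostate cancer cell line. Every group spent 3 days in medium with charcoal-stripped serum, which removes steroids. The 0 m group then received EtOH, the vehicle, and the other groups received 10 nM dihydrotestosterone (DHT), the most potent natural androgen, over periods of 30 m, 4 h, 16 h and up to 72 h. H3K27ac was measured in 2 samples per time point and H3K4me3 in 1, but the deposited tables hold 1 contact value for each loop at a time point and mark. Sets of 5 values run from the vehicle to the longest DHT treatment, and sets of 4 leave out the vehicle. A contact value is a number of read pairs joining the 5 kb bins that hold the 2 anchors, scaled by the authors among the 5 time points of a mark. Read pairs could be recovered from it, and all intervals below are 95% intervals of counting error only. No spread between replicates was given, so no difference below was tested against one.

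UDP-glucuronosyltransferases of the UGT2B family sit in the endoplasmic reticulum and attach glucuronic acid to steroids, bile acids and drugs, which makes them water-soluble and ready for export. In the prostate, UGT2B15 and UGT2B17 inactivate DHT and its metabolites in this way, and androgen is known to lower the expression of both in LNCaP cells. UGT2B7 conjugates androgens, oestrogens and opioids, UGT2B10 conjugates nicotine and other amines, UGT2B28 has weak activity on steroids, and few substrates are known for UGT2B11. The genes arose by tandem duplication and remain so alike that reads from one copy can fit another.

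The stretch of 250 bases before the start is shown for the 4 promoters that have an entry in the RefSeq promoter table (GRCh38.p14), since it shows both the likeness and a feature that they share. Each stretch matched hg19 chromosome 4 at exactly 1 place. The position is chr4:69536371-69536620 on the minus strand for UGT2B15, chr4:69961942-69962191 on the plus strand for UGT2B7, chr4:69681462-69681711 on the plus strand for UGT2B10 and chr4:70080467-70080716 on the minus strand for UGT2B11. The sequences run 5′ to 3′, and capitals mark a palindrome, GTTA and TAAC spaced by 5 bases of any kind, which is like the binding site of the liver and gut factor HNF1.
UGT2B15: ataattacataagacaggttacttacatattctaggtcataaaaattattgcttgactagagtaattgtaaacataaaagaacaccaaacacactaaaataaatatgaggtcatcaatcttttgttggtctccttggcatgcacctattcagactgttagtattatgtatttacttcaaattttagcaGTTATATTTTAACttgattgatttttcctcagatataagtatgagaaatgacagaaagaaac
UGT2B7: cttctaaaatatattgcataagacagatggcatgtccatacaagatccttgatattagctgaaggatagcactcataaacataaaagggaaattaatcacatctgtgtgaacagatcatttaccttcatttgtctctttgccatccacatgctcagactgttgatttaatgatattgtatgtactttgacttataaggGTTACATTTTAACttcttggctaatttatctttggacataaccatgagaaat
UGT2B10: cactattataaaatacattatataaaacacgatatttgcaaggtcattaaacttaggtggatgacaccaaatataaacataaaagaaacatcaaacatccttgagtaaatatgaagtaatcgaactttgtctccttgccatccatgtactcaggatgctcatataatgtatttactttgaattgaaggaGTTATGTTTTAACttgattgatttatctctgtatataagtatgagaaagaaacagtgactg
UGT2B11: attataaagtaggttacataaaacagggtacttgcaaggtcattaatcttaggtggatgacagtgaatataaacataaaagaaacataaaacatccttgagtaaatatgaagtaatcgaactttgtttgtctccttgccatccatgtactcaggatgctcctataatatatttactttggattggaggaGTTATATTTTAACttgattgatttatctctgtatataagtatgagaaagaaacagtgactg
UGT2B17 and UGT2B28 had no entry. The motif was found in 4 of these 4 promoters, beginning 52 bases before the start in UGT2B7, 61 in UGT2B10, 61 in UGT2B11 and 62 in UGT2B15, whereas 0.236% of 35116 promoter stretches of this length held it on either strand. It was chosen with the sequences in view. The full palindromic androgen response element, AGAACA and TGTTCT spaced by 3 bases, was in none of the 4 and in 0.00285% of all stretches. A single arm of it, AGAACA, was found in UGT2B15 only, on the strand as printed, 172 bases before the start, and was in 12.4% of all stretches counting both strands. The forkhead-like motif GTAAACA was also found in UGT2B15 only, on the strand as printed, 183 bases before the start, and was in 2.98% of all stretches counting both strands. The UGT2B10 and UGT2B11 stretches were 90.2% identical in a global alignment, UGT2B11 and UGT2B15 71.3%, and UGT2B7 and UGT2B15 58.4%. GC content was between 28.4% and 32.8%.

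The likeness reached across the 5 kb windows. The UGT2B11 and UGT2B28 windows aligned over 99.9% of their length at 95.9% identity, and those of UGT2B10 and UGT2B28 over 99.9% at 91.7%. The UGT2B15 window did not align in this way with the window at the annotated UGT2B17 start (17.6% of its length), but with the window around the first coding base of UGT2B17 it aligned over 77.9% at 95.5% identity. That first coding base (chr4:69434202) lies 7838 bp downstream of the annotated start of UGT2B17 (chr4:69442040), which has 7 exons, whereas in the other 5 genes, with 6 exons each, the distance is 26 to 47 bp. The share of 64-base words of the window that occur once in the genome was 99.0% for UGT2B17, 94.6% for UGT2B7, 90.1% for UGT2B10, 81.2% for UGT2B28, 79.1% for UGT2B15 and 75.1% for UGT2B11. For 755 coding promoters of chromosome 4 the median share was 99.7%, and 39 of them (5.17%) were below 90%. Of these 39, 3 had any loop, namely UGT2B11, UGT2B15 and UGT2B28, while 581 of the 755 (77.0%) had one. Many of the other promoters below 90% were of USP17L genes, most with a share far below those of the UGT2B windows. The authors kept uniquely mapped pairs, and such likeness may lower the number of pairs that map. Its part in the levels was not tested.

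The libraries held 2475168 to 4308555 read pairs in loops for H3K27ac and 2153262 to 10675614 for H3K4me3, with H3K4me3 at 4 h the deepest, so that 1 read pair was worth 0.180 to 0.294 units of contact for H3K27ac and 0.0792 to 0.342 for H3K4me3. The prostate luminal markers KLK3, KLK2, TMPRSS2, HOXB13 and FOXA1 each had loops, with a summed H3K27ac contact of 65.5 to 242 per gene at 0 m. Of the basal markers TP63, KRT5 and KRT14, 0 of 3 had a loop, and for the hepatocyte markers the sum over 3 genes was 17.3, with ALB at 1.18. For leukocytes CD3E had loops, with a contact of 8.82, while PTPRC had none, and for fibroblasts COL1A1 had loops, with 24.4, while COL3A1 and DCN had none.

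Most UGT2B loops were H3K27ac loops. Of the 46 loops of UGT2B15, 40 were called only with H3K27ac, 4 only with H3K4me3 and 2 with both. UGT2B7 had 26, 1 and 1, and the other promoters had H3K27ac loops only. Of the 505995 loops of the whole series, 296326 were called with H3K27ac and 278491 with H3K4me3, with 68822 in both. The median loop length was 212.5 kb for UGT2B7, 240 kb for UGT2B10, 310 kb for UGT2B11, 317.5 kb for UGT2B15 and 355 kb for UGT2B28, and the loop of UGT2B17 spanned 5 kb. Among 16259 coding promoters with a loop the median was 20 loops and 66 H3K27ac read pairs at 0 m. UGT2B15, with 335 pairs, UGT2B7, with 221, and UGT2B10, with 89, were above this median, while UGT2B28, UGT2B17 and UGT2B11 had 32, 21 and 20 pairs. In H3K27ac at 0 m the promoters ranked UGT2B15, UGT2B7, UGT2B10, UGT2B28, UGT2B17 and UGT2B11, and the intervals of neighbours overlapped only among the last 3.

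**Figure D1:**
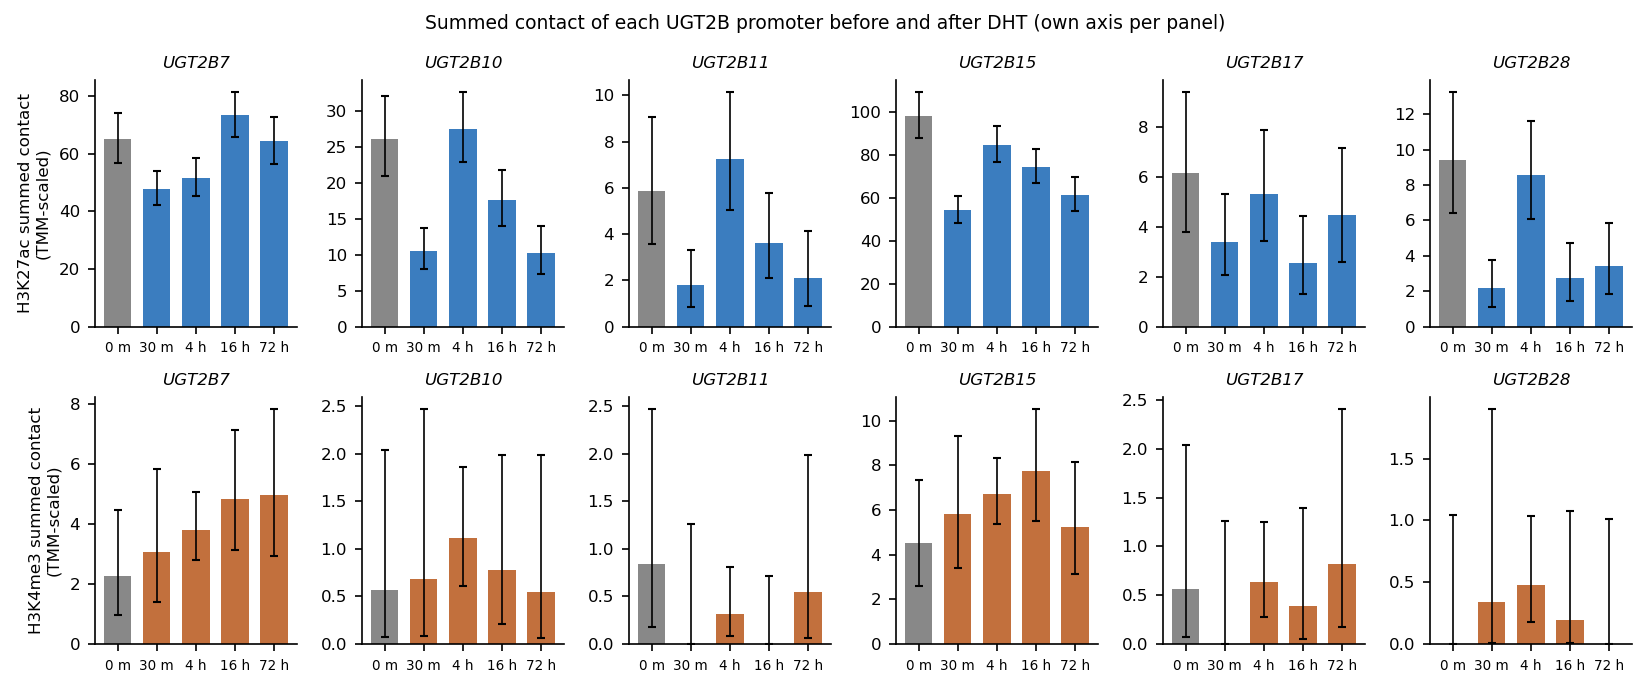
Summed contact (TMM-scaled units, own linear axis from 0 in each panel) of the 6 UGT2B promoters at the 5 time points, H3K27ac in the upper row and H3K4me3 in the lower row; grey bars are vehicle, coloured bars DHT, and error bars 95% exact Poisson intervals. H3K27ac contact of UGT2B15 is highest at 0 m, at 98.4, while that of UGT2B7 is highest at 16 h, at 73.2; H3K4me3 contact stays below 8 in every panel.

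After DHT, H3K27ac contact of the UGT2B promoters was lower at 30 m, closer to its starting level at 4 h, and lower again at 16 h and 72 h. Summed over the 99 loops it was 197, 116, 174, 167 and 141. The log2 change against 0 m was -0.76 (-0.91 to -0.60), -0.17 (-0.32 to -0.03), -0.24 (-0.39 to -0.09) and -0.48 (-0.65 to -0.32). With only the loops averaging 1 unit or more, the interval at 16 h held 0. A mean of at least 20 read pairs over the time points was reached by 4 of 6 promoters, UGT2B7, UGT2B10, UGT2B15 and UGT2B28. UGT2B28, with a mean of 22 pairs, reached it only through its high values at 0 m and 4 h, so that the counts are a description. Of the 4, 3 were lower by at least 1.5-fold at 30 m, where 3.61% of 12449 coding promoters were. None of the 4 was at 4 h, with 1.37% of all promoters, 1 was at 16 h, with 9.51%, and 3 were at 72 h, with 7.05%. None of the 4 was higher by this fold at any time, where 18.7%, 4.3%, 17.9% and 17.6% of all promoters were. With each table scaled to equal totals of read pairs in place of TMM, the shares of all promoters became 12.3%, 2.98%, 7.7% and 9.21% higher and 5.14%, 2.06%, 19.0% and 12.1% lower. Of the 4 UGT2B promoters 0 were then higher at each time, and 3, 0, 3 and 3 were lower, since UGT2B10 and UGT2B15 joined UGT2B28 at 16 h. Leaving out UGT2B28, 2, 0, 0 and 2 of 3 were lower on the deposited scale. The median log2 change over all 6 was -1.08, -0.17, -0.64 and -1.01, against 0.26, 0.05, 0.13 and 0.16 over all promoters that reached the mean of 20 pairs.

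The same course was seen in DNA around these promoters, and partly in AT-rich DNA everywhere. The 200 other loops within the stretch of 1361 kb that the UGT2B loops span had a log2 change of -0.66, 0.01, -0.21 and -0.49 at the 4 times, close to that of the UGT2B promoters. The GC content of the loop anchors averaged 37.3% for the UGT2B promoters and 37.3% for these neighbours, against a median of 45.05% over all loops, and 45 of the 99 loops were in the class of lowest GC content out of 20. For all loops of the same classes as the UGT2B loops the log2 change was -0.50, -0.02, 0.03 and -0.08. Beyond them, the change of the UGT2B promoters was -0.25, -0.15, -0.27 and -0.40. Loop length moved with the result as well. Over the 93 UGT2B loops of at least 20 kb the log2 change was -1.01, -0.14, -0.42 and -0.76, and over all loops of this length in the same GC classes it was -0.77, -0.17, -0.39 and -0.44, which leaves -0.24, 0.03, -0.03 and -0.32. The part of GC content and length in the changes was not tested.

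**Figure D2:**
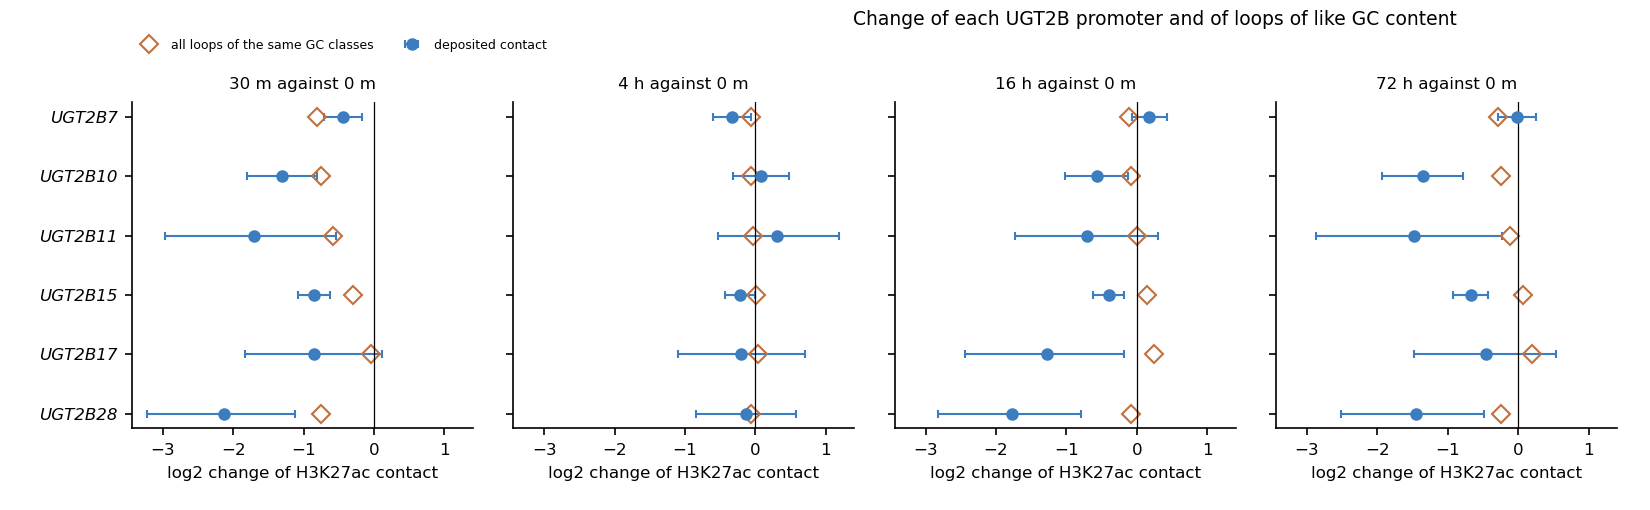
Log2 change of summed H3K27ac contact against 0 m for each UGT2B promoter (circles, bars are 95% exact conditional intervals of the read pair ratio) and for all loops of the same GC classes (diamonds), 1 panel per time point. At 16 h UGT2B10, UGT2B15, UGT2B17 and UGT2B28 lie left of their diamonds with intervals that do not reach them, at -0.57, -0.40, -1.28 and -1.77, and UGT2B7 lies to the right of its diamond at 0.17.

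UGT2B15, which conjugates DHT and its metabolites, had a summed H3K27ac contact of 98.4, 54.5, 84.8, 74.5 and 61.6 (335, 303, 397, 351 and 234 read pairs). The highest value was that of the vehicle, and the interval of the vehicle overlapped only that of 4 h. The log2 change was -0.85 (-1.08 to -0.62), -0.21 (-0.43 to just below 0), -0.40 (-0.62 to -0.18) and -0.68 (-0.92 to -0.43), and beyond the GC classes it was -0.55, -0.23, -0.55 and -0.74. Over its 44 loops of at least 20 kb it was -0.48, -0.01, -0.22 and -0.59 beyond loops of like GC content and length. Of its 33 loops with a mean of at least 3 read pairs, 28, 21, 30 and 30 were lower than in the vehicle, where 47.7%, 47.8%, 49.5% and 50.2% of 242545 loops of the series were, and 73.2%, 56.9%, 61.6% and 64.2% of those in the lowest 4 GC classes with a length of at least 20 kb. Some of the 33 reached this mean only through their vehicle and 4 h values, such as a loop with 4, 2, 5, 2 and 2 pairs. The counts are thus a description.

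The loops of UGT2B15 did not all follow this course, and the strongest of the long ones was higher at 16 h. This loop of 105 kb joined the UGT2B15 promoter to the 5 kb around chr4:69432001-69433000, which holds the first coding exon of UGT2B17. It had 15, 26, 19, 59 and 27 read pairs, or 4.41, 4.68, 4.06, 12.5 and 7.10 units of contact. Its level was thus flat to 4 h, 2.84-fold higher at 16 h (log2 change 1.51, 0.67 to 2.43) and in between at 72 h (0.69, -0.27 to 1.70). For all loops of at least 20 kb in its GC class the change at 16 h was -0.23. Without it, the change of the rest of UGT2B15 at 16 h was -0.60 (-0.83 to -0.37). The anchors of this loop lie inside the pair of windows that align over 77.9% of their length at 95.5% identity, with 74.7% unique words in the less unique of its 2 bins. The part of mapping in its value was not tested.

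The promoter and body of UGT2B15 were joined by its strongest loop of all, 5 kb long and called only with H3K4me3, which had 67, 63, 60, 85 and 58 H3K27ac read pairs and so 19.7, 11.3, 12.8, 18.0 and 15.3 units. It was lower at 30 m and 4 h and back near the vehicle level at 16 h (log2 change -0.13, -0.60 to 0.36). A loop of 15 kb to DNA upstream of the gene had 23, 39, 32, 14 and 20 pairs, which was flat at 30 m and 4 h and lower at 16 h (-1.19, -2.26 to -0.17), the opposite course to the loop with UGT2B17. Without the 3 strongest loops UGT2B15 had log2 changes of -1.10 (-1.39 to -0.81), -0.15 (-0.40 to 0.11), -0.72 (-1.01 to -0.44) and -0.99 (-1.32 to -0.68).

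**Figure D3:**
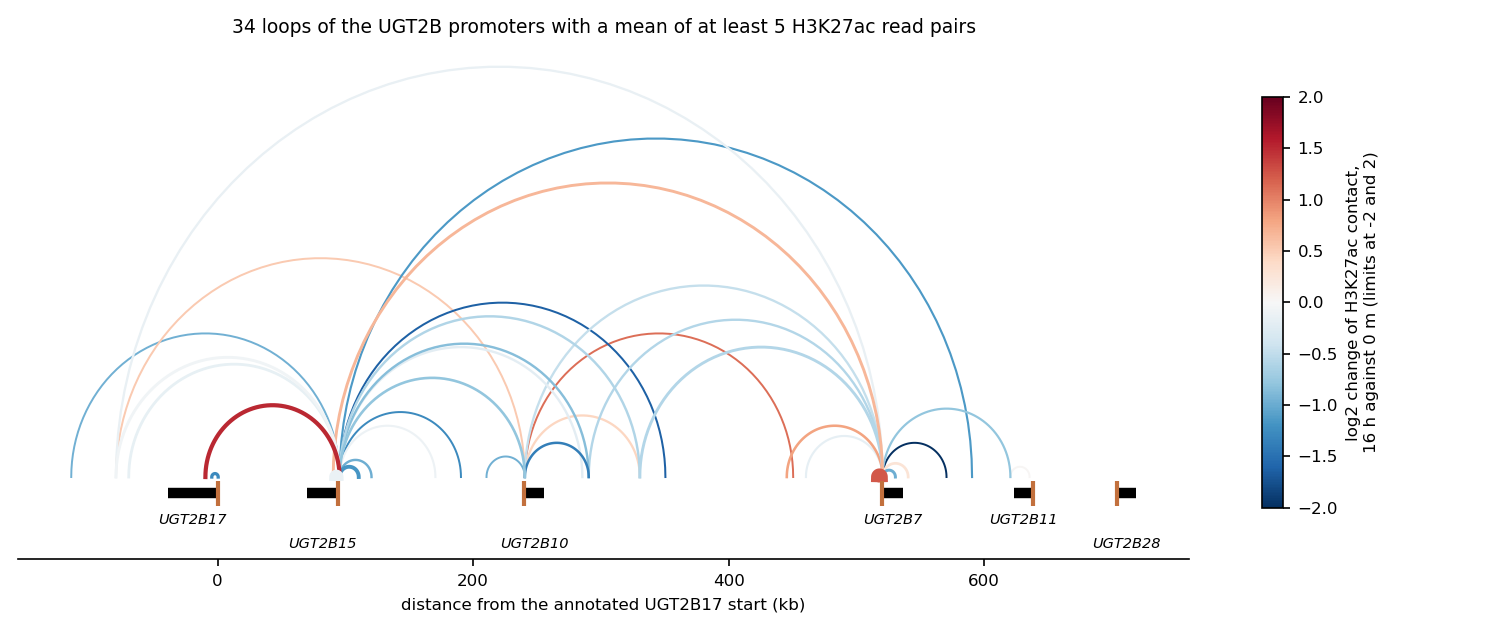
Loops of the UGT2B promoters with a mean of at least 5 H3K27ac read pairs (34 arcs), drawn along chromosome 4 by distance in kb from the annotated UGT2B17 start; black bars are genes, orange ticks their starts, arc width grows with mean contact and colour gives the log2 change at 16 h against 0 m. 9 of the 34 are higher and 25 lower at 16 h, where 54.6% and 45.4% of all loops of this depth are, and 41.1% and 58.9% of those of at least 20 kb in the lowest 4 GC classes, and the most intense red arc joins the UGT2B15 start to the first coding exon of UGT2B17. Some of the 34 reach this depth only through their values at 0 m and 4 h.

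UGT2B17, the other DHT-conjugating enzyme, had a single loop at its annotated start, 5 kb long and reaching from the start into the gene, with 21, 19, 25, 12 and 17 H3K27ac read pairs. Its contact was 6.17, 3.42, 5.34, 2.55 and 4.47, and only at 16 h did the interval of the change leave 0 (log2 change -1.28, -2.43 to -0.19). The value at 16 h turned with the choice of start. Around the first coding base there were 9 loops, with 51, 50, 50, 101 and 59 read pairs and a contact of 14.99, 8.997, 10.7, 21.4 and 15.5, so that contact was 0.52 higher at 16 h on the log2 scale (0.02 to 1.03). The loop with UGT2B15 made up 59 of those 101 pairs, and without it the change at 16 h was -0.25 (-0.92 to 0.44). Another loop from this exon, of 100 kb to the body of UGT2B15, had 12, 11, 8, 20 and 17 pairs.

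For UGT2B7, and for no other of the 6 promoters, the intervals of the change held 0 at both 16 h and 72 h, which was not so without its strongest loop. The difference from the others was not tested. Its H3K27ac contact was 64.9, 47.9, 51.5, 73.2 and 64.2 (221, 266, 241, 345 and 244 pairs). The log2 change was -0.44 (-0.70 to -0.18), -0.33 (-0.60 to -0.06), 0.17 (-0.07 to 0.42) and -0.02 (-0.28 to 0.25), and beyond the GC classes it was 0.36, -0.27, 0.29 and 0.27, which turns the direction at 30 m and 72 h. At 16 h the change was -0.07 (-0.32 to 0.18) at equal totals of read pairs and -0.24 (-0.55 to 0.08) over its 26 loops of at least 20 kb. Beyond loops of like GC content and length these 26 had 0.22, -0.21, 0.35 and 0.25. Its strongest loop was 5 kb long, joined the start to the bin just upstream, inside the span of longer UGT2B7 transcripts, and held 35.3% of the gene's mean contact.

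That UGT2B7 loop had 45, 109, 68, 148 and 105 read pairs, or 13.2, 19.6, 14.5, 31.4 and 27.6 units. All 4 DHT values were above the vehicle, by a log2 change of 0.57 (0.06 to 1.10), 0.14 (-0.43 to 0.71), 1.25 (0.76 to 1.76) and 1.06 (0.55 to 1.60). At 16 h and 72 h it was at least 1.5-fold higher, as were 33.9% and 30.1% of 72724 loops averaging at least 10 pairs. The rest of the UGT2B7 loops together had log2 changes of -0.87, -0.48, -0.31 and -0.50 at the 4 times, where their GC classes had -0.79, -0.06, -0.11 and -0.28. Among them, the 10 kb loop into the gene body had 20, 19, 14, 14 and 11 pairs. The 430 kb loop to the body of UGT2B15 had 11, 16, 13, 24 and 13 pairs, with a log2 change at 16 h of 0.66 (-0.43 to 1.83), so that the difference was within counting error.

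**Figure D4:**
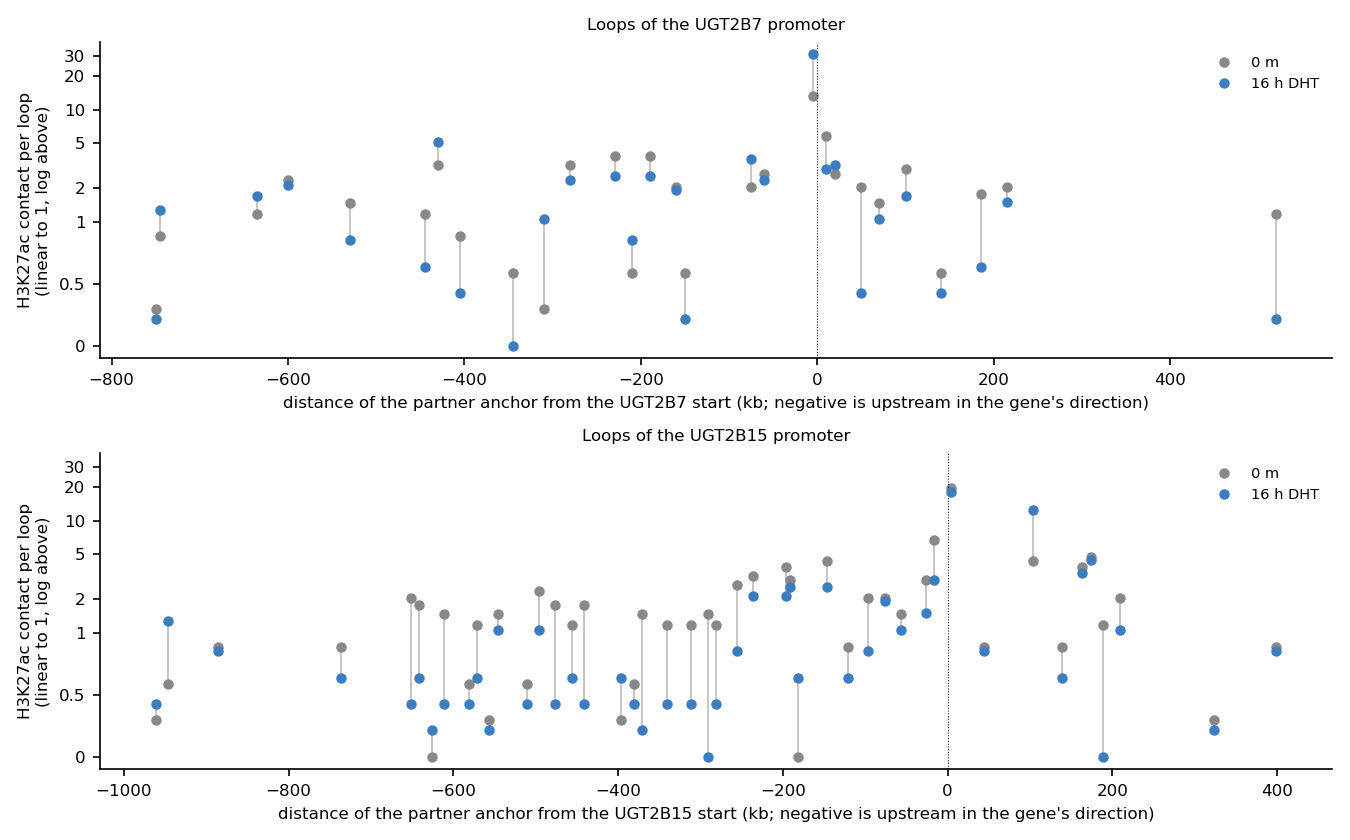
H3K27ac contact of each loop of the UGT2B7 (upper) and UGT2B15 (lower) promoter at 0 m (grey) and 16 h DHT (blue) against the distance of its partner anchor from the gene start in kb, on an axis that is linear to 1 and logarithmic above. The UGT2B7 loop next to the start goes from 13.2 to 31.4 and the UGT2B15 loop 105 kb downstream from 4.41 to 12.5, while 30 of 33 UGT2B15 loops with a mean of at least 3 read pairs are lower at 16 h, as are 49.5% of all loops of this depth and 61.6% of those of at least 20 kb in the lowest 4 GC classes. Some of the 33 reach this mean only through their values at 0 m and 4 h.

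UGT2B10, UGT2B11 and UGT2B28, the 3 genes whose windows align with each other almost end to end, were lower at 30 m and 72 h, with intervals of the change that held 0 at 4 h. UGT2B10 had a contact of 26.2, 10.6, 27.6, 17.6 and 10.3 (89, 59, 129, 83 and 39 pairs). Its log2 change was -1.30 (-1.80 to -0.81), 0.08 (-0.33 to 0.48), -0.57 (-1.02 to -0.12) and -1.35 (-1.93 to -0.79), and beyond the GC classes it was -0.54 (-1.04 to -0.05), 0.13 (-0.27 to 0.54), -0.48 (-0.93 to -0.03) and -1.10 (-1.68 to -0.54). Beyond loops of like GC content and length it was -0.23, 0.29, close to 0 and -0.68. Its loop of 50 kb to the bin chr4:69730001-69735000 had 17, 5, 17, 9 and 4 pairs. UGT2B28 had 9.40, 2.16, 8.55, 2.76 and 3.42 units (32, 12, 40, 13 and 13 pairs), with changes of -2.12 (-3.21 to -1.13), -0.14 (-0.84 to 0.58), -1.77 (-2.82 to -0.80) and -1.46 (-2.51 to -0.49). Its vehicle and 4 h values were thus together well above the other 3, and at 16 h it was -1.68 (-2.73 to -0.71) beyond the GC classes and -1.20 beyond GC content and length. UGT2B11 had only 20, 10, 34, 17 and 8 pairs, with a log2 change of -1.71 (-2.97 to -0.55) at 30 m, which was -1.12 (-2.38 to 0.04) beyond the GC classes, and intervals that held 0 at 4 h and 16 h. Its strongest loop, of 15 kb to a bin just past the end of the gene, had 5, 3, 9, 7 and 2 pairs. The anchor of that loop at the UGT2B11 window, from chr4:70077001, only touches the edge of the window. The 5 kb bin around this anchor lies in the gene body and does not hold the start (chr4:70080466). The strongest loop of UGT2B28 had 6, 3, 4, 3 and 6 pairs.

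The promoters also contacted each other. Of 15 possible gene pairs 7 were joined, by 1 loop each: UGT2B15 with UGT2B10, UGT2B11 and UGT2B28, UGT2B7 with UGT2B10 and UGT2B28, and UGT2B10 with UGT2B11 and UGT2B28. The strongest, of 145 kb between UGT2B15 and UGT2B10, had 15, 8, 19, 12 and 6 H3K27ac pairs, and the loop of 280 kb between UGT2B7 and UGT2B10 had 11, 6, 12, 11 and 5. The loop between UGT2B11 and UGT2B15 had 5 pairs at 0 m, 6 at 4 h and 5 at 16 h but 0 at 30 m and 72 h, where 0 allows up to 3 pairs by a one-sided limit. Summed, the 7 loops had 49, 22, 51, 35 and 20 pairs, and the log2 change was -1.86 (-2.66 to -1.11), -0.40 (-0.997 to 0.19), -0.95 (-1.62 to -0.30) and -1.45 (-2.28 to -0.67). Beyond the GC classes the change was -1.22, -0.36, -0.93 and -1.28. These 7 loops were each longer than 100 kb and were not set against loops of like length.

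The partner anchors of the 6 promoters fell in 70 bins of 5 kb, and 9 of these were contacted by at least 3 members. The most shared bin, chr4:69770001-69775000, lies in a long non-coding RNA gene and an unprocessed pseudogene without symbols between UGT2B10 and UGT2B7, and was contacted by 5 members, all but UGT2B17. Its 5 loops held 37, 51, 46, 39 and 25 pairs, and the interval of the change held 0 at each of the 4 times. The bin chr4:69730001-69735000, outside any annotated gene, was contacted by 4 members, with 47, 22, 36, 31 and 20 pairs and log2 changes of -1.80 (-2.60 to -1.04), -0.84 (-1.51 to -0.19), -1.07 (-1.77 to -0.38) and -1.39 (-2.23 to -0.61). The bin of the UGT2B10 start was contacted by 4 other members, with 33, 17, 37, 25 and 11 pairs. Of all 99 loops, 16 had a mean of at least 10 pairs. Of these, 0, 1, 4 and 3 were higher by at least 1.5-fold at the 4 times, with 26.9%, 20.9%, 33.9% and 30.1% of 72724 loops in the series, and 7, 3, 7 and 5 were lower, with 14.7%, 11.8%, 15.8% and 16.9%. The 50 kb loop of UGT2B10 was among the 16 and reached this mean only through its values at 0 m and 4 h.

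H3K4me3 contact was low at all 6 promoters and too sparse for most genes. Summed over the 99 loops there were 31, 29, 159, 70 and 44 read pairs, with the deepest library at 4 h, and the contact was 8.74, 9.91, 12.6, 13.5 and 12.1. The log2 change was 0.18 (-0.60 to 0.96), 0.53 (-0.04 to 1.13), 0.63 (just above 0 to 1.29) and 0.47 (-0.23 to 1.18). For all loops of the series it was 0.02, 0.22, 0.14 and -0.13, for loops of the same GC classes 0.12, 0.25, 0.33 and 0.17, and for the 200 neighbouring loops 0.51, 0.37, 0.59 and 0.31. Beyond the GC classes the change at 16 h was 0.30 (-0.33 to 0.96). UGT2B15 had 16, 17, 85, 40 and 19 pairs, with a contact of 4.51, 5.81, 6.73, 7.73 and 5.22, and UGT2B7 had 8, 9, 48, 25 and 18 pairs, with 2.26, 3.07, 3.80, 4.83 and 4.95. These were the 2 promoters of 6 with a mean of at least 20 pairs. At least 1.5-fold higher were 0, 1, 2 and 1 of the 2, with 1.95%, 14.5%, 4.75% and 2.76% of 13167 coding promoters. At least 1.5-fold lower was neither of them, with 2.76%, 2.59%, 0.881% and 6.62%, and each of the 8 intervals held 0. At equal totals these shares were 1.67%, 5.64%, 2.38% and 4.45% higher and 3.06%, 6.55%, 1.97% and 2.75% lower, and 0, 0, 2 and 1 of the 2 promoters were higher. UGT2B7, with a mean of 21.6 pairs, reached the filter only through the deep 4 h table. Leaving it out, UGT2B15 was higher by this fold on the deposited scale at 16 h and not at the other times. UGT2B10, UGT2B11, UGT2B17 and UGT2B28 had at most 14 pairs in any H3K4me3 table. At this depth a change in them was not detectable.

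Other genes of the glucuronidation pathway ranged from no loop to more loops than any UGT2B promoter. Of 18 genes for UDP-glucuronic acid supply and use, other transferases, reversal and export, 13 had a loop and 4 had a mean of at least 20 H3K27ac pairs, namely UGDH, UXS1, UGT8 and GUSB. At 16 h 1 of the 4, UXS1, was higher by at least 1.5-fold (0.61, -0.08 to 1.33) and none lower, where 17.9% of all promoters were higher and 9.51% lower. At 30 m none was higher and 1, UGT8, was lower, where 18.7% and 3.61% were. UGDH, which makes the UDP-glucuronic acid that the UGT2B enzymes use, had 81 loops and went from 99.0 in the vehicle to 136, 95.7, 142 and 123 (log2 change at 16 h 0.52, 0.33 to 0.71). The 5 coding promoters outside the cluster whose summed contact followed that of the 6 UGT2B promoters most closely over the 10 tables were PRKACB, BARD1, TBL1XR1, ACVR2A and PLGRKT, with Pearson r of 0.911, 0.910, 0.909, 0.906 and 0.892 on log2 values centred within each mark, among 7622 candidates.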

How the data were processed

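HiChIP with antibodies to H3K27ac (10 samples, 2 per time point) and H3K4me3 (5 samples, 1 per time point) was deposited for 15 samples. The authors trimmed reads (Trim Galore 0.5.0), aligned them to hg19, kept uniquely mapped pairs with HiC-Pro 3.1.0 and Bowtie2, pooled the reads of all time points of a mark, called a reference loop set per mark from them in 5 kb bins (FitHiChIP) and scaled the counts by TMM. The deposited signal is this scaled contact, in 10 tables that list the same 574817 anchor pairs (296326 from H3K27ac and 278491 from H3K4me3, with 68822 in both). Whether both H3K27ac samples entered a value is not given in the sources used here.

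Each anchor pair was counted once. 100% of the values were whole multiples of the smallest value above 0 of their table (tolerance 0.001), which gave read pairs. With 1 value per mark and time point no count test was possible. Summed contact carries exact Poisson intervals and changes carry exact conditional (Clopper-Pearson) intervals, at 95% and for counting error only, since read pairs are not independent molecules. Starts came from Gencode 44 lifted to GRCh37. GC content, 64-base words and alignments used the GRCh37 sequence (blastn 2.17.0+, Biopython 1.88); tables used Python 3.11.15, numpy 2.4.6, scipy 1.17.1 and pandas 2.3.3. Recovery and intervals were checked only on simulated Poisson counts. Such counts hold no spread between samples, so the check says nothing about that spread. The members and lists were chosen with earlier results of these data known. Named were the 6 genes, the 3 strongest loops per gene and mark, every loop between members, 8 neighbours, 18 glucuronidation genes, marker lists (some marker genes are not reported here) and the 5 promoters most alike (mean of at least 100 pairs per mark). The first coding exon, partner bins and other loops in the text were named after their values were seen. Alternatives were other windows, anchors, loop sets, lengths, scalings, filters and a division by GC class.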

Additional observations from a re-analysis of the deposited data

How the results depend on the processing

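No paired analysis was possible because 1 value was deposited per mark and time point, and for the same reason no sample could be left out in turn. Of 629 values recomputed under alternatives, 2 whose interval left 0 changed sign, and 20 other log2 changes, with intervals that held 0, also did. Divided by GC class, UGT2B7 at 30 m turned to 0.36, and with the first coding base as start UGT2B17 at 16 h turned to 0.52. The summed H3K27ac change of the 6 promoters at 30 m, 16 h and 72 h was -1.01, -0.42 and -0.76 with loops of at least 20 kb, -1.02, -0.41 and -0.81 with loops of at least 100 kb and -0.92, -0.44 and -0.70 without the strongest loop. At equal totals of read pairs it was -0.48 at 16 h and -0.65 at 72 h. It was -0.55 at 4 h with the H3K4me3 loop set only, -0.30 at 72 h with only loops averaging 1 unit or more (at 16 h then -0.09, -0.26 to 0.08), and -0.25 at 30 m when divided by GC class. The summed H3K4me3 change was 1.58 at 16 h with the H3K4me3 set only, and 1.86, 1.87, 1.78 and 1.70 at the 4 times with only loops averaging 1 unit or more, which are 2 loops with 3 read pairs in the vehicle (at 4 h 0.22 to 4.21, with intervals that held 0 at the other times). UGT2B11 had 0 loops with a window of 1 kb, and UGT2B17 had 3 with 5 kb, 3 with the whole bin as anchor and 9 at the first coding base. With anchors within 1 bin, 9 loops were in both sets in place of 3. With a mean of at least 50 read pairs the share of all coding promoters past 1.5-fold was 2.93% in place of 5.67% (H3K27ac, 4 h), 2.16% in place of 4.71% (H3K4me3, 30 m) and 3.38% in place of 5.63% (H3K4me3, 16 h). The cause was not tested. GC division, the coding start, the 100 kb limit, the counts without UGT2B28 or UGT2B7 and the loop background were chosen after seeing the data. Depth limits H3K4me3 and the UGT2B11, UGT2B17 and UGT2B28 values, which rest on few read pairs.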

Other observations

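The genes that flank the UGT2B promoters in the cluster differed in their H3K27ac contact. YTHDC1, a reader of methylated adenosine in RNA at one edge of the stretch, had 8 loops and went from 19.7 in the vehicle to 22.5, 26.7, 35.0 and 28.9 over the DHT times, a log2 change of 0.83 (0.41 to 1.26) at 16 h and 0.56 (0.10 to 1.02) at 72 h. UGT2A3, a related transferase gene between UGT2B10 and UGT2B7, had 5 loops and went from 7.64 to 3.24, 8.76, 4.03 and 3.68 over the same times, with a log2 change of -0.92 (-1.86 to -0.01) at 16 h and -1.05 (-2.10 to -0.06) at 72 h. TMPRSS11E and UGT2B4 had 2 loops each and UGT2A1 and UGT2A2 had 1 each, with at most 18 read pairs in any of the H3K27ac tables. SULT1B1 and SULT1E1, sulfotransferase genes, had none. YTHDC1 and UGT2A3 each shared 1 loop with a UGT2B promoter.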
